A study of Mus musculus with 14 samples.

Results

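The enzymes that make serine and pass its carbon and sulfur on to folate, methionine and cysteine were followed as 10 genes, chosen by name: Phgdh, Psat1, Psph, Shmt1, Shmt2, Mthfd2, Mthfd1l, Mat2a, Cbs and Cth. All 10 had a row among the 24463 genes of the files. RNA was sequenced in 14 libraries of mouse leukemic stem cells (LSCs), here bone marrow cells made leukemic in culture. The dKO group held 3 untreated libraries of LSCs from Tcf1/Lef1-deficient mice, that is, without Tcf1 (the product of Tcf7) and Lef1, transcription factors at the end of the Wnt pathway. The PGE1 group held 3 libraries and the PGE2 group 2 libraries of control LSCs given 20 µM of that prostaglandin for 6 h, and the DMSO group 3 libraries of control LSCs given the solvent for 6 h. The WT group held 3 untreated libraries of control LSCs. Cells of all 5 groups started as lineage-negative marrow, received a p210 BCR-ABL retrovirus in 2 rounds, 24 h apart, and were sorted as c-Kit+ Sca1+ GFP+ lineage-negative cells 48 h after isolation. They are therefore freshly transduced cultured cells and not cells taken from a leukemic animal. The labels name no deleting Cre, strain, age or sex of the mice. They also do not say whether replicates came from separate mice, so a p-value here compares a difference with the spread of the libraries at hand, and that spread may be technical.

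In 2 libraries title and genotype field disagree: dKO replicate 1 is also labelled wild type, and DMSO replicate 1 Tcf1/Lef1-deficient. Groups follow the titles. Tcf7 stood at 0.142, 0.0219 and 0.135 FPKM (fragments scaled to transcript length and to library depth) in dKO replicates 1 to 3, against 1.48, 1.15 and 1.30 FPKM in WT replicates 1 to 3. The library titled dKO replicate 1 was thus as low in Tcf7 as the other dKO libraries, and DMSO replicate 1, at 1.03 FPKM, lay within the DMSO range of 0.850 to 1.53 FPKM. Lef1 was low throughout, averaging 0.151 ± 0.0411 FPKM over the dKO libraries and 0.283 ± 0.0524 FPKM over the WT libraries (SD, n = 3 each; exact permutation p = 0.1 for each of the 2 genes, the smallest p that 3 libraries against 3 allow). The Y-linked gene Ddx3y had 0 reads in every dKO library, against 7.72 to 8.94 FPKM in WT, so the deletion and the absence of Y-linked RNA cannot be told apart in any dKO result below.

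Phgdh, Psat1 and Psph catalyse the successive steps that turn the glycolytic intermediate phosphoglycerate into serine. Shmt1 in the cytosol and Shmt2 in mitochondria split serine into glycine and a one-carbon unit carried on folate, and the mitochondrial enzymes Mthfd2 and Mthfd1l pass that unit on towards formate, which feeds purine and thymidylate synthesis. Mat2a makes S-adenosylmethionine, the methyl donor of the cell, from methionine and ATP. Cbs condenses serine with homocysteine to cystathionine, and Cth cleaves cystathionine to release cysteine, a building block of glutathione. Several of these genes, Psat1, Phgdh, Shmt2, Mthfd2 and Cth among them, are textbook targets of Atf4, the transcription factor of the amino acid response, and proliferating blood cells use the pathway to make nucleotides.

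RefSeq start sites were at hand for 9 of the 10 genes (mouse build GRCm38.p6), and Cth had none. Shown here are the 250 bases before the start of Psat1 and Shmt2, which had nearly the same profile over the libraries, and of Shmt1, which fell furthest after PGE1. CpG pairs are in capitals, each sequence reads 5′ to 3′, and all 3 genes lie on the minus strand, at chr19:15925060-15925309 for Psat1, chr10:127522445-127522694 for Shmt2 and chr11:60811266-60811515 for Shmt1.
Psat1: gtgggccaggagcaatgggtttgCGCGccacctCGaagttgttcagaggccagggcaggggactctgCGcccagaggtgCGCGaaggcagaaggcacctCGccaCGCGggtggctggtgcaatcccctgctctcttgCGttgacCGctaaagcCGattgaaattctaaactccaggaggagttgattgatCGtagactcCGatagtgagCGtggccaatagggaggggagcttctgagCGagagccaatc
Shmt2: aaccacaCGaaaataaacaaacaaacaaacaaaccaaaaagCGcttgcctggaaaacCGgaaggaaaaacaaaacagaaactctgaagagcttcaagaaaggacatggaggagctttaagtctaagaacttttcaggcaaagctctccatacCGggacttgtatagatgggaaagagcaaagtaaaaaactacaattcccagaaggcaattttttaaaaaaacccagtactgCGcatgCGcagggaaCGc
Shmt1: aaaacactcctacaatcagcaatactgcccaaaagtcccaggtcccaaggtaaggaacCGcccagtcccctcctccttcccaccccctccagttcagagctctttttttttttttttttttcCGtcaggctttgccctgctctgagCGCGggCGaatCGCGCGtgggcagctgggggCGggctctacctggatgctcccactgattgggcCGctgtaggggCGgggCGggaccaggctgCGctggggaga
The windows hold 16 CpG pairs for Psat1, 7 for Shmt2 and 13 for Shmt1, against a median of 6 over 32851 windows of the same length. At least 10 CpG pairs were in 37.8% of all windows, and the window of the other Psat1 start site, not shown, holds 24. The amino acid response element TGATGNAA, read on both strands, was in 0 of the 10 windows of these genes (Psat1 has a pair of start sites) and in 3.45% of all windows. The E-box CACGTG was in 1 of the 10, that of Cbs, and in 6.02% of all windows. These letters may lie elsewhere in the genes, so nothing about either factor follows from the counts.

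Reads in genes came to 19.0 to 20.6 M in untreated libraries and 11.3 to 13.4 M in treated ones. Replicate counts differed by 1.84 to 42.8 times the variance that counting alone gives, so no 2 libraries of a group agreed within sampling noise. Over all genes PGE1 replicate 2 stood apart from the other PGE1 libraries, at 41.3 and 42.8 times that variance in its pairs against 11.3 between PGE1 replicates 1 and 3, and without it 8 of 9 members were lower after PGE1 than after DMSO. For the members PGE1 replicate 1 stood apart: it was the highest of the 3 PGE1 libraries in 10 of 10. DMSO replicate 1 was the highest DMSO library in 7 of 10. Over all genes it stood apart too, at 14.9 and 17.1 times the counting variance in its pairs. Between DMSO replicates 2 and 3 the value was 1.84. For dKO replicate 1 the values were 14.8 and 14, against 5.19 between dKO replicates 2 and 3. DMSO replicate 1 and dKO replicate 1 are the libraries whose genotype field goes against the title. The stem cell gate genes were present in every group, but Ly6a, which encodes Sca1, averaged 3.12 FPKM in dKO against 11.3 FPKM in WT, and Cd34 36.1 against 65.4 FPKM. RNA from bulk sorted cells cannot tell fewer cells of a type from less RNA per cell.

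Levels per kilobase spanned a wide range. Shmt2 was the most abundant of the 10 in every group, at 172 FPKM in dKO, 45.1 in PGE1, 99.9 in PGE2, 79.1 in DMSO and 124 in WT. Psat1 came next, and its libraries overlapped those of Shmt2 only in PGE1. Mthfd2 and Mat2a followed, overlapping in DMSO, then Phgdh, Mthfd1l, Shmt1 and Psph, in an order that differed between groups. In PGE1 these last ran from 14.4 FPKM for Mthfd1l to 4.80 FPKM for Shmt1. Psph, Shmt1 and Mthfd1l could not be put in order in dKO, where the libraries of Psph overlapped those of Shmt1 and those of Shmt1 overlapped those of Mthfd1l. Shmt1 and Mthfd1l also overlapped in WT and DMSO, and Psph overlapped Mthfd1l and Phgdh in PGE1. Cth was 9th and Cbs last in every group, with Cbs never above 0.859 FPKM (66 reads), so its values rest on few reads. Across groups, dKO had the highest mean and PGE1 the lowest in all 10 genes, and in 9 of them, Cbs being the exception, the means of WT, PGE2 and DMSO lay between in that falling order. Neighbours in that order overlapped for Mat2a (dKO and WT), for Cth (PGE2 and DMSO) and for Cbs. Summed over the 10 genes, the level was 680 to 715 FPKM in dKO, 157 to 216 in PGE1, 388 to 398 in PGE2, 296 to 335 in DMSO and 488 to 490 in WT, with no overlap between any 2 groups.

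**Figure D1:**
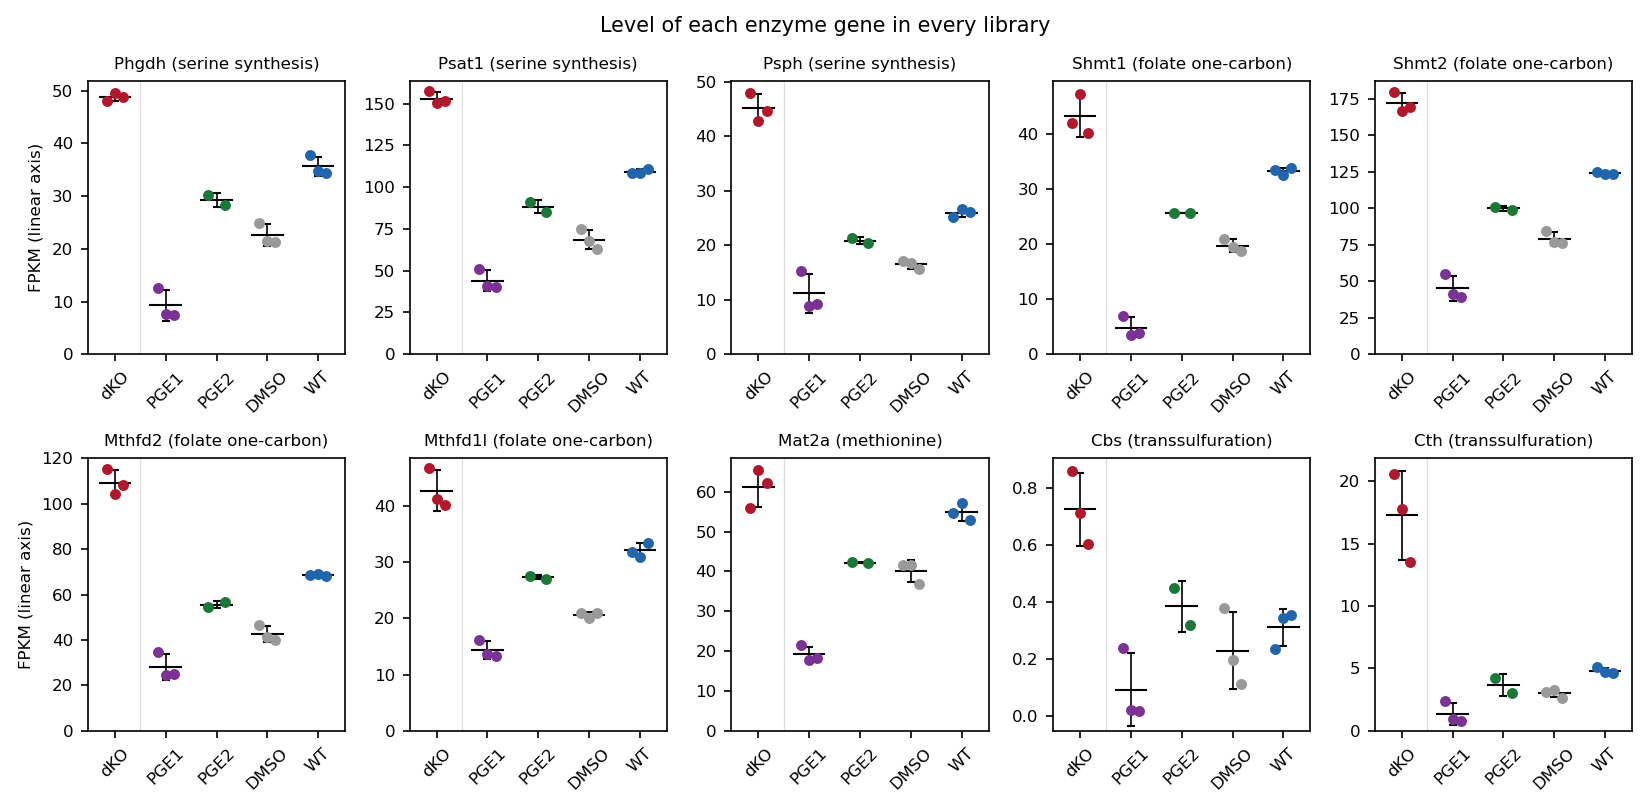
FPKM (linear vertical axis) of each of the 10 genes in the 14 libraries, by group on the horizontal axis; points are libraries, horizontal lines group means and bars ± 1 SD. In all 10 panels the dKO mean is the highest and the PGE1 mean the lowest, and PGE1 replicate 1 is the top PGE1 point in 10 of 10 panels.

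The first comparison, dKO against WT, bears on what loss of Tcf1 and Lef1 changes in LSCs. All 3 serine synthesis genes, all 4 folate genes and Cth were higher in dKO, by 1.30- to 1.74-fold except for Cth at 3.60-fold. Of the 9 members that passed the minimum level of 1 FPKM on average, 8 were higher at an adjusted p below 0.05 and 0 lower, where 18% of 10721 genes tested were higher and 22.9% lower. The median log2 difference was 0.47 for the 9 members and -0.01 for all genes.

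Among the serine synthesis genes Psph moved most. It stood at 48.0, 42.9 and 44.7 FPKM in dKO, against 25.1, 26.6 and 26.2 FPKM in WT, a log2 difference of 0.77 ± 0.05 (SE; limma adjusted p = 2.4e-05). The lowest dKO library was well above the highest WT library. Psat1, the aminotransferase of the middle step, stood at 157, 150 and 152 FPKM in dKO and 109, 108 and 111 FPKM in WT (1.40-fold). Phgdh, the first and committing step, stood at 48.0, 49.6 and 48.9 FPKM in dKO and 37.7, 34.8 and 34.5 FPKM in WT (1.37-fold). Neither gene's groups overlapped, and the ratio of Psph to Psat1 within a library was higher in dKO too, at 0.295 ± 0.00988 against 0.238 ± 0.00755 in WT (SD, n = 3 each; exact permutation p = 0.1, the smallest possible).

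Of the 4 folate members Mthfd2, which is prominent in proliferating and transformed cells, rose most. Its level was 116, 104 and 108 FPKM in dKO, against 68.5, 69.0 and 68.2 FPKM in WT (log2 difference 0.66 ± 0.04 SE, adjusted p = 2.67e-05). Its partner Mthfd1l stood at 46.8, 41.2 and 40.3 FPKM in dKO and 31.9, 31.0 and 33.5 FPKM in WT (1.33-fold). Both rose without overlap, Mthfd1l by less: the ratio of Mthfd1l to Mthfd2 was 0.391 ± 0.0175 in dKO and 0.469 ± 0.0209 in WT (SD, n = 3 each; exact permutation p = 0.1). Shmt2 averaged 172 ± 6.73 FPKM over the dKO libraries, against 124 ± 0.939 over the WT libraries, and Shmt1 43.2 ± 3.67 in dKO, against 33.2 ± 0.648 in WT (SD, n = 3 each). The 2 serine hydroxymethyltransferases rose by 1.39-fold and 1.30-fold, and their ratio overlapped between the groups.

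Cth rose furthest of all members and had the 3rd largest log2 difference upwards of the 10721 genes tested. It stood at 20.6, 17.7 and 13.5 FPKM in dKO (1159, 1080 and 805 reads), against 5.09, 4.68 and 4.64 FPKM in WT (299, 270 and 277 reads). The dKO libraries spread more than the WT libraries, yet the lowest of them was well above the highest WT value, and the log2 difference was 1.64 ± 0.13 (SE, adjusted p = 7.09e-05). Cbs stood at 0.859, 0.710 and 0.603 FPKM in dKO (66, 59 and 49 reads) and at 0.237, 0.343 and 0.356 FPKM in WT (19, 27 and 29 reads). The groups did not overlap, with an exact permutation p of 0.1. Mat2a was the exception, at 55.8, 65.4 and 62.2 FPKM in dKO and 54.7, 57.3 and 52.8 FPKM in WT. Its groups overlapped and its log2 difference of 0.15 (95% interval 0.01 to 0.29) missed the threshold (adjusted p = 0.0868), but it passed without dKO replicate 1 (0.21, adjusted p = 0.00581). Without that library, whose genotype field reads wild type, 9 of 9 members were higher.

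**Figure D2:**
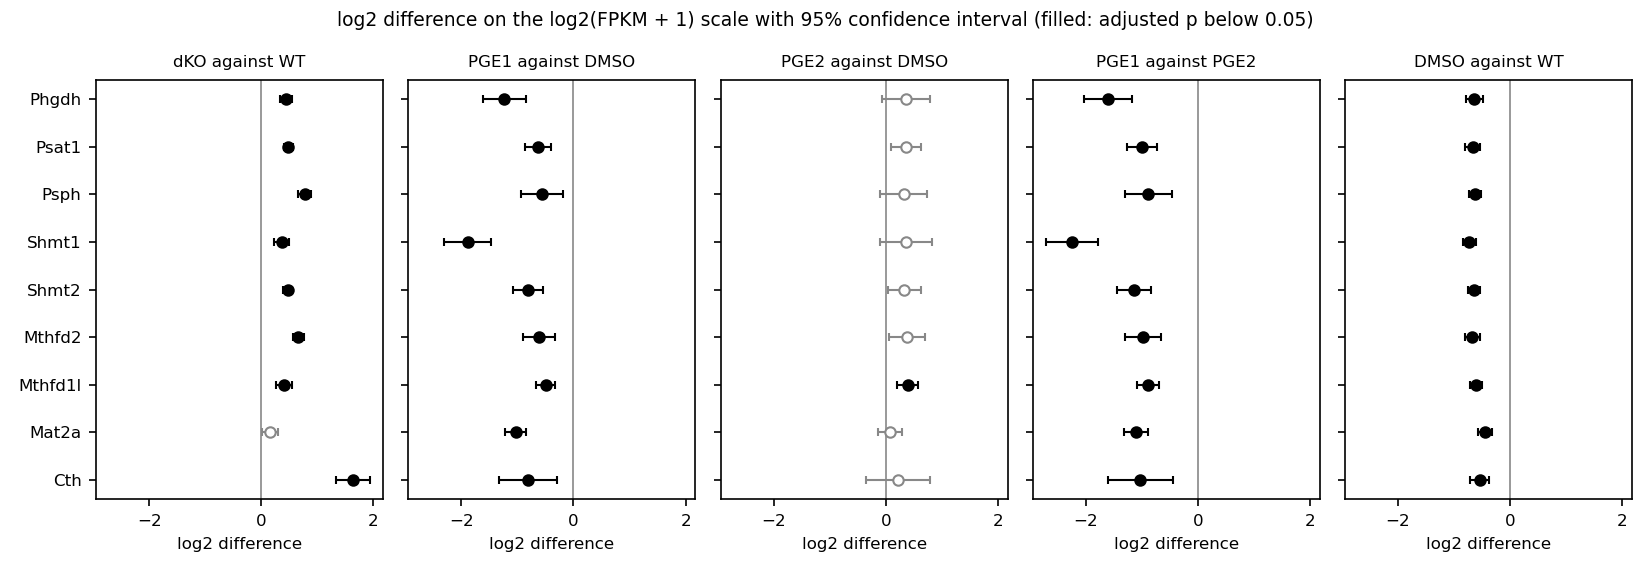
Log2 differences on the log2(FPKM + 1) scale (horizontal axis) for the 9 members tested (vertical axis) in 5 comparisons; points are estimates, bars 95% confidence intervals, filled points adjusted p below 0.05. Every filled point lies right of 0 in dKO against WT and left of 0 in PGE1 against DMSO, PGE1 against PGE2 and DMSO against WT; in PGE2 against DMSO 1 point, Mthfd1l, is filled.

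Markers of other blood cells also differed between dKO and WT. The 10 monocyte and macrophage markers in the files summed to 98.1 to 115 FPKM in dKO, against 766 to 805 FPKM in WT, and 10 of 10 were lower. Megakaryocyte markers summed to 74.7 to 139 FPKM in dKO and 287 to 314 FPKM in WT (10 of 10 lower), mast cell and basophil markers to 89.0 to 101 FPKM in dKO and 177 to 185 FPKM in WT (6 of 8 tested lower), and erythroid markers to 8.40 to 11.2 FPKM in dKO and 17.9 to 18.7 FPKM in WT (3 of 5 tested lower). Late neutrophil markers summed to 1342 to 1930 FPKM in dKO and 1492 to 1509 FPKM in WT, with 6 of 8 tested lower and 1, S100a8, higher (853 against 608 FPKM). Lymphoid markers summed to 95.2 to 99.2 FPKM in dKO and 70.2 to 73.3 FPKM in WT, mostly from Nkg7, a gene of cytotoxic lymphocytes, with 87.3 FPKM in dKO against 67.3 FPKM in WT. Of 4 lymphoid markers tested 3 were higher in dKO, Nkg7 and the B cell precursor genes Vpreb1 and Igll1, while Cd3e, Cd3d, Ms4a1 and Ncr1 were at 0 in dKO. Of 9 hepatocyte and stromal markers, listed because liver uses transsulfuration most, only Pecam1, which blood cells also express, averaged 1 FPKM or more (43.8 FPKM in dKO, 45.9 FPKM in WT, not called), and Ttr was at 0 in both groups. Marker sums overlapped for the neutrophil list, and lay lower in dKO for the monocyte, megakaryocyte, mast cell and erythroid lists. Their part in the rise of the enzymes was not tested.

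Genes of the neighbouring pathways moved in both directions. Of 18 genes of the Atf4 amino acid response tested, 13 were higher in dKO and 1, Atf3, was lower (median log2 difference 0.47). Atf4 itself stood at 333, 283 and 297 FPKM in dKO and at 224 in each WT library. Atf5, a related factor, rose 1.63-fold (40.9 against 25.1 FPKM), the amino acid exchanger subunit Slc7a5 1.48-fold (134 against 90.8 FPKM) and the alanine transaminase Gpt2 1.84-fold (14.2 against 7.72 FPKM). The list shares its known regulator with several members, so it was not chosen independently of them.

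Of 17 cysteine and glutathione genes tested 8 were higher and 2 lower in dKO, the smallest p belonging to glutathione reductase Gsr (186 against 134 FPKM), the glutathione-degrading enzyme Chac1 (17.4 against 8.35 FPKM) and the glutamate-cysteine ligase subunit Gclm (30.7 against 24.0 FPKM). Of 15 folate cycle genes 6 were higher and 1, Ggh, lower. The largest difference was that of the mitochondrial folate enzyme Aldh1l2 (2.05 against 0.902 FPKM), and the smallest p belonged to the cytosolic enzyme Mthfd1 (49.5 against 40.1 FPKM), the folate carrier Slc19a1 (43.5 against 34.7 FPKM) and Fpgs (17.5 against 13.6 FPKM), which adds glutamates to folate. Of 13 genes of serine supply and use 5 were higher and 1 lower, including the mitochondrial serine carrier Sfxn1 (55.4 against 44.8 FPKM), the glycine transporter Slc6a9 (5.09 against 2.39 FPKM) and, in the other direction, Sfxn3 (4.66 against 8.31 FPKM). Of 14 methionine cycle genes 3 were higher and 1 lower: spermidine synthase Srm (215 against 163 FPKM), Adi1 and Mri1 of methionine salvage, and Ahcyl2 (3.88 against 5.25 FPKM, lower). Without dKO replicate 1 the higher genes numbered 8 for serine supply and 6 for the methionine cycle, and the lower ones 2 for the amino acid response. Without dKO replicate 2 the lower genes numbered 2 for the folate cycle and 2 for the methionine cycle. The median log2 differences were 0.25 for cysteine and glutathione, 0.14 for folate, 0.12 for serine supply and 0.09 for methionine, each below the members' 0.47.

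The second comparison asked what PGE1 does to control LSCs over 6 h. Every tested member fell, from 1.44-fold for Mthfd1l to 4.11-fold for Shmt1. At an adjusted p below 0.05, 9 of 9 were lower, where 25.5% of 11242 genes tested were lower and 23.6% higher, and the median log2 difference was -0.81 for the members and 0.01 for all genes. No PGE1 library reached the lowest DMSO library in any of the 9, an arrangement that 29.2% of all genes tested show.

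Shmt1, the cytosolic serine hydroxymethyltransferase, stood at 6.98, 3.57 and 3.85 FPKM after PGE1, against 21.0, 19.5 and 18.7 FPKM after DMSO, a log2 difference of -1.88 ± 0.18 (SE, adjusted p = 6.83e-05). Shmt2, its mitochondrial counterpart, stood at 55.0, 41.4 and 39.0 FPKM after PGE1 and at 84.3, 76.5 and 76.5 FPKM after DMSO (log2 difference -0.81 ± 0.12 SE, adjusted p = 0.000579). Both fell, the cytosolic form by more: Shmt1 was 0.104 ± 0.0208 of Shmt2 after PGE1 and 0.250 ± 0.0054 of it after DMSO (SD, n = 3 each; exact permutation p = 0.1, the smallest possible). The cytosolic enzyme Mthfd1, no member, likewise fell against mitochondrial Mthfd2, with a ratio of 0.357 ± 0.0271 after PGE1 and 0.566 ± 0.0216 after DMSO (SD, n = 3 each; exact permutation p = 0.1). Mthfd2 stood at 34.5, 24.5 and 24.8 FPKM after PGE1 and 46.6, 41.4 and 39.8 FPKM after DMSO, and Mthfd1l fell least, at 14.4 ± 1.57 FPKM after PGE1 and 20.7 ± 0.553 after DMSO (SD, n = 3 each). The ratio of Mthfd1l to Mthfd2 overlapped between these groups.

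In serine synthesis the first step fell furthest. Phgdh stood at 12.6, 7.67 and 7.48 FPKM after PGE1 and at 24.9, 21.5 and 21.4 FPKM after DMSO (2.44-fold lower, adjusted p = 0.000398). Psat1 stood at 51.3, 40.7 and 40.2 FPKM after PGE1 and at 74.7, 67.8 and 63.2 FPKM after DMSO (1.55-fold lower, adjusted p = 0.00112). The PGE1 and DMSO libraries were separate for both, and the ratio of Phgdh to Psat1 was 0.207 ± 0.0341 after PGE1 against 0.330 ± 0.0109 after DMSO (SD, n = 3 each; exact permutation p = 0.1). Psph stood at 15.3, 8.94 and 9.29 FPKM after PGE1 and at 17.1, 16.8 and 15.6 FPKM after DMSO, a narrow gap for PGE1 replicate 1. Its adjusted p of 0.0211 became 0.0528 to 0.0711 without DMSO replicate 1, DMSO replicate 2, PGE1 replicate 2 or PGE1 replicate 3.

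Mat2a, not called in dKO, fell with little spread after PGE1, at 21.4, 17.8 and 18.2 FPKM against 41.5, 41.7 and 36.9 FPKM after DMSO (2.09-fold lower, log2 difference -1.03 ± 0.08 SE, adjusted p = 2.43e-05). Mat2b, the regulatory subunit that binds Mat2a, was higher after PGE1, at 33.9 against 28.3 FPKM. The ratio of Mat2a to Mat2b was accordingly 0.566 ± 0.0607 after PGE1 and 1.42 ± 0.0847 after DMSO (SD, n = 3 each; exact permutation p = 0.1). Cth stood at 2.37, 0.967 and 0.766 FPKM after PGE1 (94, 34 and 29 reads) and at 3.09, 3.23 and 2.65 FPKM after DMSO (120, 132 and 102 reads), with an adjusted p of 0.0165. It did not pass without DMSO replicate 2 (adjusted p = 0.0521) or PGE1 replicate 3 (0.0532). Cbs stood at 0.240, 0.0208 and 0.0194 FPKM after PGE1, which is 13, 1 and 1 reads, and at 0.377, 0.197 and 0.114 FPKM after DMSO, which is 20, 11 and 6 reads; the groups overlapped (exact permutation p = 0.3). Without PGE1 replicate 1 the count of members lower was 9 of 9 again, and without DMSO replicate 1, whose genotype field goes against its title, it was 8 of 9.

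**Figure D3:**
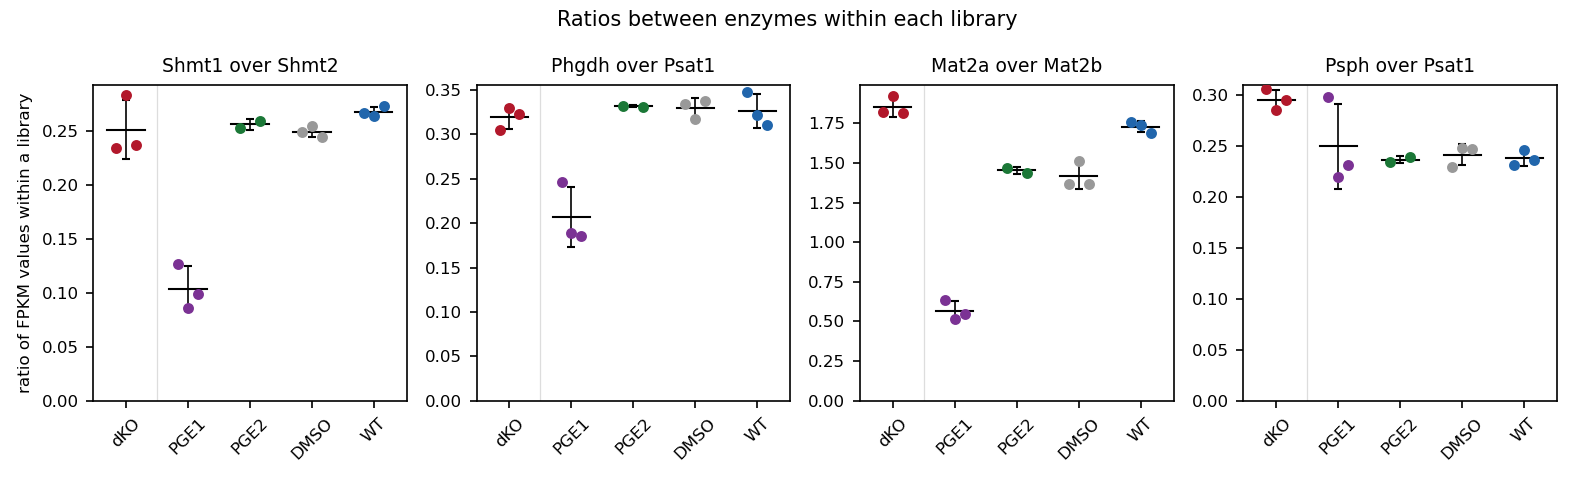
Ratio of FPKM values within each library (linear vertical axis) for 4 enzyme pairs, by group on the horizontal axis; points are libraries, lines means, bars ± 1 SD. PGE1 libraries lie below every other library for Shmt1 over Shmt2, Phgdh over Psat1 and Mat2a over Mat2b, while Psph over Psat1 is raised in dKO and overlaps between PGE1 and DMSO.

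Other genes of these pathways split after PGE1. Of 14 folate cycle genes tested 10 were lower, with a median log2 difference of -0.45. The purine synthesis enzymes Gart and Atic, which use folate one-carbon units, averaged 15.5 and 22.8 FPKM after PGE1, against 47.0 and 51.3 FPKM after DMSO, and Mthfd1 9.95 against 24.1 FPKM. Of 14 methionine cycle genes 8 were lower and 1, Mat2b, higher, and Srm showed the largest difference, at 17.4 FPKM after PGE1 against 106 FPKM after DMSO (6.10-fold lower, adjusted p = 5.04e-05). Mtap and Enoph1 of methionine salvage averaged 5.03 and 7.60 FPKM after PGE1, against 14.1 and 16.4 FPKM after DMSO. These 2 lists went the members' way in most genes.

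Cysteine and glutathione genes included more that rose than fell, unlike the members. Of 18 in that list 9 were higher and 4 lower after PGE1 (median log2 difference 0.29). The cystine importer Slc7a11 averaged 41.6 FPKM after PGE1 and 17.6 FPKM after DMSO, the ligase subunit Gclc 42.2 and 21.7 FPKM, and Gclm 159 and 92.2 FPKM; among the 4 lower genes was the sulfurtransferase Tst, at 3.81 against 8.78 FPKM. Of 13 genes of serine supply and use 4 were higher and 3 lower. The glycine transporter Slc6a9 rose 3.18-fold (16.4 against 5.16 FPKM), while the neutral amino acid transporter Slc1a5 and the mitochondrial carrier Sfxn1 fell to 36.0 and 13.6 FPKM, against 77.2 and 30.7 FPKM after DMSO.

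Of 18 amino acid response genes 10 were lower and 4 higher after PGE1 (median log2 difference -0.41). Atf4 stood at 129, 123 and 104 FPKM after PGE1 and at 189, 167 and 158 FPKM after DMSO (adjusted p = 0.00225). Among the lower genes was also Atf3, at 9.06 FPKM after PGE1 against 18.1 FPKM after DMSO. The higher ones were Ddit4 (128 against 29.1 FPKM), an inhibitor of mTORC1 signalling, Cebpb (295 against 132 FPKM), Ddit3 and Vldlr, so the list did not fall as a whole, and the 4 became 2 without DMSO replicate 2, DMSO replicate 3 or PGE1 replicate 3. The methionine cycle genes higher numbered 2 without PGE1 replicate 2 or PGE1 replicate 3. Myc, a growth regulator known to raise serine and nucleotide synthesis genes, stood at 21.6, 9.40 and 10.9 FPKM after PGE1 and at 73.0, 66.3 and 67.1 FPKM after DMSO (adjusted p = 9.8e-05), and its part in the members' fall was not tested. Of the 3 PGE1 libraries, replicate 1 was the highest in Myc, in Atf4 and in all 10 members, though its Atf4 was close to that of replicate 2 (129 and 123 FPKM). That is 1 library, and the part of Atf4 was not tested either.

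**Figure D4:**
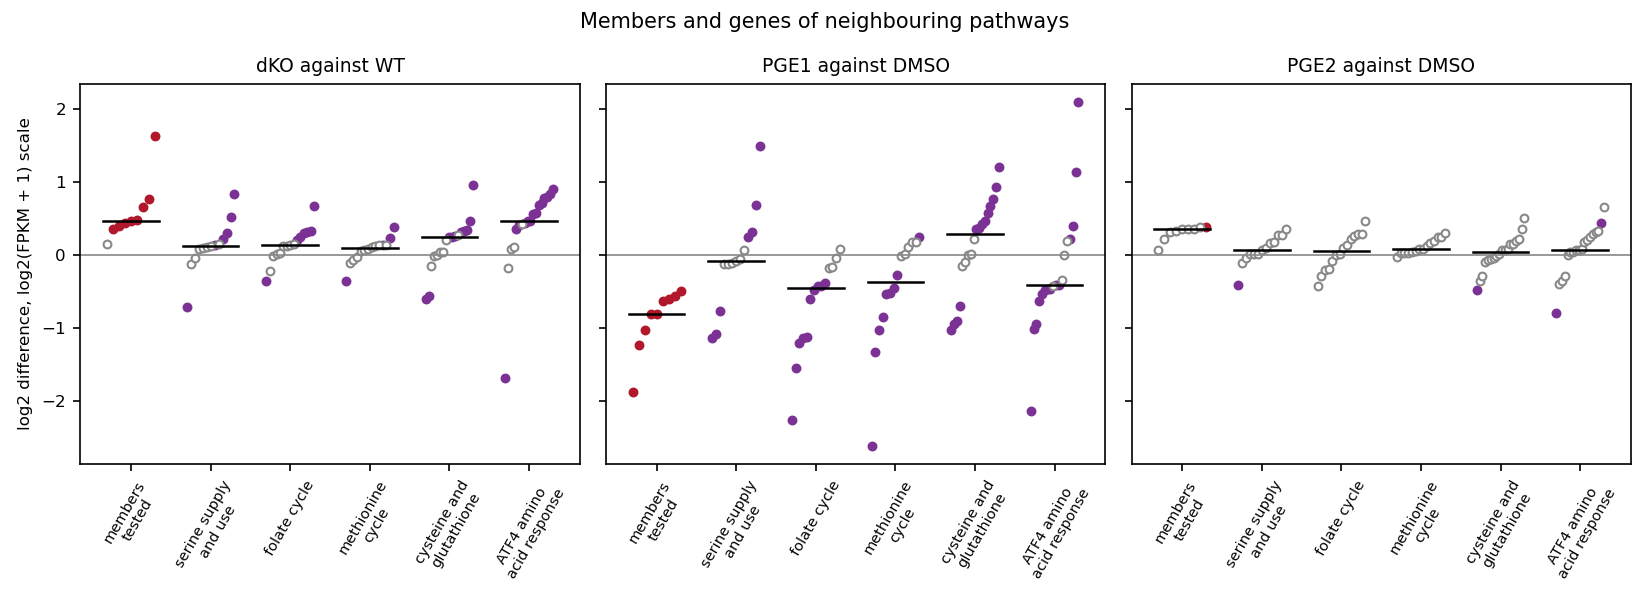
Log2 difference on the log2(FPKM + 1) scale (vertical axis) of each gene tested in the members and in 5 neighbouring lists (horizontal axis), for dKO against WT, PGE1 against DMSO and PGE2 against DMSO; filled points have an adjusted p below 0.05, open points do not, and bars are list medians. The members lie above 0 in dKO and below 0 after PGE1, while the cysteine and glutathione list has a median of 0.29 after PGE1.

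Markers of other cells also differed after PGE1. Monocyte and macrophage markers summed to 807 to 1040 FPKM after PGE1 and 793 to 935 FPKM after DMSO, with 7 of 10 lower and 2 higher. Late neutrophil markers summed to 1029 to 1596 FPKM after PGE1 and 1561 to 1848 FPKM after DMSO (6 of 9 tested lower), mast cell and basophil markers to 339 to 451 FPKM after PGE1 and 347 to 362 FPKM after DMSO (5 of 9 higher, 2 lower), and megakaryocyte markers to 422 to 562 FPKM after PGE1 and 359 to 418 FPKM after DMSO (3 of 10 higher, 2 lower). Erythroid markers summed to 12.5 to 22.6 FPKM after PGE1 and 24.5 to 27.8 FPKM after DMSO (2 of 5 tested higher, 2 lower). PGE1 replicate 2 had the highest neutrophil sum of the PGE1 libraries, 1596 FPKM against 1114 and 1029 FPKM in the others. Of the lymphoid markers only Nkg7 averaged 1 FPKM or more (10.4 FPKM after PGE1, 42.2 FPKM after DMSO), and the T cell gene Cd3e stood the other way at 0.382 and 0.0432 FPKM. Of the hepatocyte and stromal markers only Pecam1 did (39.3 FPKM after PGE1, 55.8 FPKM after DMSO), with Alb and Ttr at 0 in both. Of the stem cell surface genes, Kit averaged 42.2 FPKM after PGE1 and 26.1 FPKM after DMSO, Cd34 19.4 and 40.9 FPKM, Ptprc 50.4 and 35.3 FPKM, and Ly6a, not called, 13.0 and 14.9 FPKM. Ddx3y stood at 8.69 to 9.64 FPKM after PGE1 and 6.49 to 8.05 FPKM after DMSO, and Xist at 3.54 to 8.14 FPKM after PGE1 and 9.05 to 11.2 FPKM after DMSO. The part of these markers in the fall of the enzymes was not tested.

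After PGE2, set against the same DMSO libraries, the members' means lay on the other side of DMSO. Tested members averaged 1.05- to 1.33-fold the DMSO level, and 1 of 9, Mthfd1l, was called higher, where 0.996% of 11242 genes were higher and 4.57% lower. The median log2 difference was 0.36 for the members and 0.01 for all genes. Mthfd1l stood at 27.6 and 27.1 FPKM after PGE2 and at 21.0, 20.0 and 21.0 FPKM after DMSO (log2 difference 0.39 ± 0.09 SE, adjusted p = 0.0358). Both PGE2 libraries lay above all 3 DMSO libraries in 8 of the 9 members tested, as in 25% of all genes tested, and Cth overlapped. Psat1 stood at 91.0 and 85.4 FPKM after PGE2 and 74.7, 67.8 and 63.2 FPKM after DMSO, and Shmt1 at 25.6 and 25.6 FPKM after PGE2 and 21.0, 19.5 and 18.7 FPKM after DMSO. Neither passed the threshold (adjusted p = 0.116 and 0.362), and the 95% intervals of their log2 differences ran from 0.10 to 0.63 for Psat1 and from -0.11 to 0.83 for Shmt1.

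The number called after PGE2 rested on the estimate of spread. With only the PGE2 and DMSO libraries in the fit 7 of 9 members were higher, where 710 of all 11181 genes tested were higher. The same number of members was higher without PGE1 replicate 1, where 209 of 11244 genes were. Without any 1 of the 3 DMSO or 2 PGE2 libraries 0 members were higher, where 4 to 104 of all genes were. Of the neighbouring lists 0 of 14 folate cycle and 0 of 14 methionine cycle genes passed, 1 of 18 cysteine and glutathione genes, 1 of 13 serine supply genes and 2 of 18 amino acid response genes. They were Gclm (65.9 FPKM after PGE2 against 92.2 after DMSO), Sfxn3 (8.52 against 11.6 FPKM), Atf3 (1.81-fold lower) and Vldlr (3.81 against 2.55 FPKM), and each lost its call without PGE2 replicate 1 or PGE2 replicate 2. Without PGE1 replicate 1 the higher genes numbered 4 in the amino acid response and 2 in the folate cycle. Atf4 at 204 FPKM and Myc at 80.3 FPKM after PGE2, against 172 and 68.8 FPKM after DMSO, did not pass (adjusted p = 0.244 and 0.704). Late neutrophil markers summed to 2115 to 2131 FPKM after PGE2 and 1561 to 1848 FPKM after DMSO (1 of 9 tested higher, 0 lower). Monocyte and macrophage markers summed to 1042 to 1048 FPKM after PGE2 and 793 to 935 FPKM after DMSO (2 of 10 higher, 0 lower). Lymphoid sums were higher too (59.2 to 60.1 against 41.6 to 48.5 FPKM), almost all from Nkg7. That gene, the only lymphoid marker tested, averaged 58.1 against 42.2 FPKM and was not called. Megakaryocyte sums overlapped (0 of 10 called). Mast cell and basophil sums were lower after PGE2 (252 to 253 against 347 to 362 FPKM), but only 1 of 9 markers was called lower and 0 higher (median log2 difference -0.035). Gzmb, at 72.0 against 161 FPKM, made up most of that fall, while Hdc, Fcer1a and Tpsb2 had higher means after PGE2. Erythroid sums were lower as well (15.9 to 18.3 against 24.5 to 27.8 FPKM), with 0 of 5 tested called. Hepatocyte and stromal sums were also lower (37.65 to 39.39 against 51.63 to 60.32 FPKM). These came almost all from Pecam1, the only marker of that list tested (37.3 against 55.8 FPKM, called lower). Xist stood at 14.6 and 14.9 FPKM after PGE2 and at 9.05 to 11.2 FPKM after DMSO, not called, and Ddx3y overlapped between the groups. The part of these markers and of Xist in the members' values was not tested.

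PGE1 and PGE2 differ by a double bond in a side chain, which PGE2 has and PGE1 lacks, and were given at the same dose for the same time. Compared directly, every tested member was lower after PGE1, from 1.87-fold for Psph to 5.33-fold for Shmt1. At an adjusted p below 0.05, 9 of 9 were lower, where 26.7% of 11242 genes were lower and 27.2% higher, with a median log2 difference of -1.03 for the members and 0.02 for all genes. Shmt1 differed by -2.24 (95% interval -2.71 to -1.78, adjusted p = 4.85e-05), Phgdh by -1.60 (-2.02 to -1.17, adjusted p = 0.000162) and Mthfd1l by -0.89 (-1.08 to -0.69, adjusted p = 6.42e-05). The PGE1 libraries lay below both PGE2 libraries in all 10 members, as in 33.7% of the genes tested. For Cbs the reads were few (13, 1 and 1 reads after PGE1 against 24 and 15 after PGE2; exact permutation p = 0.2, the smallest that 3 libraries against 2 allow). Cth passed with an adjusted p of 0.00827 but not without PGE2 replicate 1 (0.0759). Relative to the DMSO libraries that both arms share, all PGE1 libraries lay below and both PGE2 libraries above in 8 of 9 members, and in 12.3% of all genes tested.

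Some of the within-library ratios followed the same division. Shmt1 over Shmt2 was 0.104 ± 0.0208 after PGE1 (n = 3) and 0.256 ± 0.00493 after PGE2 (n = 2), and Mat2a over Mat2b 0.566 ± 0.0607 after PGE1 and 1.45 ± 0.0222 after PGE2 (SD; exact permutation p = 0.2 for each, the smallest possible). PGE2 and DMSO libraries overlapped in both ratios. Phgdh over Psat1 and Mthfd1 over Mthfd2 were also lower after PGE1 than after PGE2, without overlap. Psph over Psat1 and Mthfd1l over Mthfd2 overlapped between PGE1 and PGE2. Cth over Cbs went the other way, at 31.95 ± 19.43 after PGE1 and 9.525 ± 0.04021 after PGE2 (SD), on few Cbs reads. Of the neighbouring lists 8 of 14 folate cycle genes were lower and 1 higher, 8 of 14 methionine cycle genes lower and 1 higher, 8 of 18 cysteine and glutathione genes higher and 4 lower, 9 of 18 amino acid response genes lower and 3 higher, and 5 of 13 serine supply genes lower and 3 higher after PGE1 than after PGE2. The 5 serine supply genes became 3 without DMSO replicate 3, PGE2 replicate 1 or PGE2 replicate 2, the higher folate gene, Mthfs, lost its call without any 1 of those libraries or PGE1 replicate 2, and the methionine cycle gene, Mat2b, lost its call without either PGE2 library. Late neutrophil markers summed to 1029 to 1596 FPKM after PGE1 and 2115 to 2131 FPKM after PGE2 (8 of 9 tested lower), and mast cell and basophil markers to 339 to 451 FPKM after PGE1 and 252 to 253 FPKM after PGE2 (6 of 9 higher, 1 lower); their part in these differences was not tested. Xist averaged 5.95 FPKM after PGE1 and 14.8 FPKM after PGE2 (limma adjusted p = 0.00266). The Y-linked genes Kdm5d and Ddx3y averaged 3.18 and 9.06 FPKM after PGE1, against 1.96 and 7.53 FPKM after PGE2 (limma adjusted p = 0.0119 for Kdm5d, Ddx3y not called). The part of these genes was not tested either. Gart averaged 15.5 FPKM after PGE1 and 57.3 after PGE2, Srm 17.4 and 131 FPKM, Slc6a9 16.4 and 4.94 FPKM, and Gclm 159 and 65.9 FPKM.

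The treated cells had lower member levels even in solvent. In DMSO against WT 9 of 9 members were lower, where 30.7% of 11115 genes were lower and 26% higher, with a median log2 difference of -0.64 for the members and -0.03 for all genes. The falls were close in size, from 1.37-fold for Mat2a (40.1 ± 2.69 FPKM in DMSO, 54.9 ± 2.23 in WT) to 1.68-fold for Shmt1 (19.7 ± 1.16 FPKM in DMSO, 33.2 ± 0.648 in WT; SD, n = 3 each). Solvent, the added 6 h of culture, sequencing depth and any difference in batch cannot be told apart here. The ratio of Phgdh to Psat1, 0.330 in DMSO and 0.326 in WT, overlapped between the groups. Beside Cth (2.99 ± 0.304 FPKM in DMSO, 4.80 ± 0.252 in WT), Slc7a11 averaged 17.6 FPKM in DMSO and 1.92 FPKM in WT, and Gclm 92.2 and 24.0 FPKM. Chac1 was lower, at 4.02 FPKM in DMSO and 8.35 FPKM in WT. Of the neighbouring lists 8 of 14 folate cycle genes were lower and 2 higher, 10 of 14 methionine cycle genes lower and 0 higher, 7 of 13 serine supply genes lower and 3 higher, 6 of 17 cysteine and glutathione genes lower and 6 higher, and 8 of 18 amino acid response genes lower and 7 higher. Markers of other cells moved here too. Mast cell and basophil markers summed to 347 to 362 FPKM in DMSO and 177 to 185 FPKM in WT (6 of 9 higher, 1 lower), megakaryocyte markers to 359 to 418 FPKM in DMSO and 287 to 314 FPKM in WT (3 of 10 higher, 1 lower), late neutrophil markers to 1561 to 1848 FPKM in DMSO and 1492 to 1509 FPKM in WT (3 of 9 higher, 3 lower) and erythroid markers to 24.5 to 27.8 FPKM in DMSO and 17.9 to 18.7 FPKM in WT (2 of 5 higher). These sums did not overlap, and their part in the lower levels of the enzymes was not tested. The comparison shares its WT libraries with dKO against WT and its DMSO libraries with both prostaglandin comparisons, so the members' falls and rises are not independent between them.

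Profiles over the 14 libraries, each gene centred on its own mean of log2(FPKM + 1), were compared by their root mean square difference with 11077 genes. The genes nearest to Psat1 were Shmt2 (0.08), Mthfd2 (0.09) and Fam101b (0.09). Those nearest to Mthfd2 were Psph (0.08), Psat1 (0.09) and Shmt2 (0.10), all members. For Psat1, 2 of the 3 nearest genes were thus members as well, but 5 of the 9 members compared (Phgdh, Shmt1, Mthfd1l, Mat2a and Cth) had no member among their 3 nearest. Shmt2 itself was nearest to the ribonucleotide reductase subunit Rrm2 (0.06), ahead of Psat1. Shmt1 was nearest to Nkg7 (0.09), Ifrd2 (0.10) and 3110082I17Rik (0.11), none of them a member, and each of these averaged at most 10.4 FPKM after PGE1. Cth had no close neighbour, with Myl10 (0.27), Chac1 (0.28) and Prss57 (0.28) the nearest, and Chac1 averaged 17.4 FPKM in dKO against 8.35 FPKM in WT. The libraries share group means and depth in these values, so they are given as a description.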

How the data were processed

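The authors aligned reads to the mouse build mm9 and made FPKM values with CASAVA 1.8, TopHat and Cufflinks, per the submitters' processing notes, and deposited 1 file of FPKM per library; the labels give no strand setting, read length, annotation or treatment of reads that match several genes. In all 19057 genes with reads the FPKM values step by whole reads (within 0.001 of a read), and the reads quoted were recovered from those steps. Intervals cover the spread between libraries, and reads counting error only.

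Tests were two-sided, by limma's lmFit and trended eBayes (limma 3.58.1, R 4.3.3) on log2(FPKM + 1), for genes averaging at least 1 FPKM in the fit, with Benjamini-Hochberg adjustment over all genes and a threshold of 0.05. A log2 difference on this scale understates changes of low genes, and folds are ratios of mean FPKM. The fits were the 6 untreated libraries, the 8 treated libraries (sharing 1 estimate of spread, since PGE2 has 2) and the 6 DMSO and WT libraries. Cbs in each comparison, Tcf7 and Lef1 in dKO against WT, and all within-library ratios were tested by exact permutation. Ratios came to 7 pairs of genes in 5 comparisons, 35 tests, and none passed after adjustment over them (smallest adjusted p = 0.318).

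All 10 members were named. The rule for naming genes of each neighbouring list was up to 3 with the smallest p past the threshold, with Atf4 and Myc. Not every gene under the rule was named, mainly in PGE1 against PGE2 and in DMSO against WT. Others, such as single genes that ran against their list or the transporters and Mat2b, were named after their values were seen. The members and lists were chosen with earlier results of these data known. In the neighbouring lists 1 gene was left out and is not reported here, so their counts and medians are over the remaining genes. The fits were tested on simulated data. Alternatives were 2 other pseudocounts, other minimum levels, quantile and median-of-ratios scaling, limma voom on the recovered reads, a replicate block, fits of only the groups compared, and each library left out. Promoter windows are RefSeq's. The other steps used Python 3.11.15 with scipy 1.17.1, numpy 2.4.6, matplotlib 3.10.9 and pandas 2.3.3.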

Additional observations from a re-analysis of the deposited data

Results flagged for a closer look

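Opposite moves after the related prostaglandins were the 1 pattern that met a rule for closer inspection. In 8 members every PGE1 library lay below, and both PGE2 libraries above, all 3 DMSO libraries. The direct test of PGE1 against PGE2 gave log2 differences of -2.24 for Shmt1, -1.60 for Phgdh, -1.14 for Shmt2, -1.11 for Mat2a, -0.99 for Psat1, -0.99 for Mthfd2, -0.89 for Mthfd1l and -0.88 for Psph, each past the threshold (limma adjusted p at most 0.00375). Both arms are set against the same DMSO libraries, and 12.3% of all genes tested show the same arrangement. The PGE2 side alone was called for Mthfd1l only. Groups held 2 or 3 libraries, too few to check for a stray one by rule.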

How the results depend on the processing

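None of the 9 members tested changed direction under any alternative or left-out library, and neither did the difference of means of Cbs without single libraries, the only alternatives run for it. The count of members called after PGE2 against DMSO was the least stable: 1 as reported, 0 with no minimum level, 0 with the replicate block, 7 with only the 2 groups compared, and 0 to 7 without single libraries. The calls over all genes in that comparison numbered 626 as reported, 269 with the block, 1729 with only the 2 groups compared and 125 to 1218 without single libraries, and the share of them higher was 17.9% as reported, 41.1% with only the 2 groups and 31.4% with limma voom. Replicate numbers gave no clear sign of pairing between samples, but so few libraries per group cannot exclude it. Deviations of same-numbered libraries correlated at -0.249 to 0.253. In no comparison with 3 pairs did every library correlate best with its own number. The block changed no other member's call. In dKO against WT members called ran from 8 to 9, with Mat2a past the threshold under median-of-ratios scaling (adjusted p = 0.038), limma voom (0.0325) and without dKO replicate 1 (0.00581). The share of all calls higher there was 44.1% as reported, 60.2% after quantile normalization, 56.1% with median-of-ratios scaling and 54.7% with a minimum of 5 FPKM. Members called ran from 7 to 9 without single libraries in PGE1 against DMSO and from 8 to 9 in PGE1 against PGE2. In DMSO against WT no call was lost in any fit that tested the member; with a minimum of 5 FPKM Cth was not tested in that comparison or in the PGE1 comparisons, which leaves 8 called. The cause of the other differences was not tested. Depth limits Cbs, with 1 to 66 reads in a library, and Cth after PGE1. With 2 PGE2 libraries and 3 elsewhere, exact tests cannot go below the p given.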
